A study of Macaca mulatta with 7 samples.

Results

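The genes described here are 9 homeostatic microglia genes, P2RY12, P2RY13, CX3CR1, TMEM119, SALL1, GPR34, SELPLG, CSF1R and SLC2A5, chosen by symbol among the 35432 gene identifiers of single-nucleus RNA-seq matrices from rhesus monkey (Macaca mulatta) spinal cord. All 9 have an identifier, and 8 of them passed the filter on low values, a mean of at least 5 CPM over the libraries in microglia, where CPM is the number of unique molecular identifiers (UMIs) of a gene per 1000000 UMIs of the class. TMEM119 did not. The data hold 7 libraries with 1 library per group, each from 1 adult animal, female by the study's methods. The intact cervical, thoracic and lumbar libraries are from untreated cord of a 5-year-old animal, a single uninjured monkey by the study's account. The injured libraries are from lumbar cord, far below a complete thoracic injury, at 7 and 14 days post-injury (dpi; animals aged 7 years), 30 dpi (6 years) and 6 months post-injury (mpi; 6 years). At the thoracic level a block of cord had been cut out, so the lumbar tissue is spared tissue cut off from the brain. With 1 library per group, injury, animal, age and library preparation cannot be told apart and no test was possible. The range of the intact segments holds no spread between animals.

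Microglia are the resident macrophages of the central nervous system. In the intact tissue they carry a set of surface receptors and a transcription factor, some of which, though not CSF1R, set them apart from other macrophages. Microglia are known to lower many of these genes when they respond to damage. P2RY12 and P2RY13 are receptors for ADP that steer microglial processes towards damaged cells, and GPR34 is a receptor for lysophosphatidylserine. CX3CR1 binds the neuronal chemokine CX3CL1, and CSF1R binds CSF1 and IL34, on which microglial survival depends. SELPLG is the ligand of P-selectin, SLC2A5 a fructose transporter, TMEM119 a membrane protein used to mark microglia, and SALL1 a transcription factor of microglial identity.

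In the RefSeq annotation of Mmul_10, P2RY12 (chromosome 2, 53497407 to 53544222) and P2RY13 (chromosome 2, 53487000 to 53490198) lie on the minus strand inside MED12L, which is on the other strand. GPR34 (chromosome X, 41556145 to 41565125) lies inside CASK in the same opposite arrangement. CX3CR1 is on chromosome 2 (94725701 to 94741488), CSF1R on chromosome 6 (147566255 to 147600778), SLC2A5 on chromosome 1 (215407513 to 215457987) and SALL1 on chromosome 20 (38235433 to 38250961). SALL1 and SLC2A5 also overlap an uncharacterised gene on the other strand. TMEM119 (chromosome 11, 108214745 to 108223702) and SELPLG (chromosome 11, 108249570 to 108261502) are neighbours on 1 strand.

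The 250 bases before the annotated start of each gene were searched on both strands for short patterns. They were GAGGAA (a core of sites for PU.1, the myeloid factor encoded by SPI1) and the composite of PU.1 and IRF factors (GGAA and GAAA with 2 bases between them). Also searched were a loose form of the MEF2 core (CTA and TAG with any 4 bases between them, not only A and T), AACCACA (RUNX) and CAGACA (SMAD). Of 20769 protein-coding genes, 21.8% held GAGGAA in this window, and so did 2 of the 9 genes, P2RY13 among them. The loose MEF2 letters stood in 2.38% of all windows and in 1 of the 9, that of CX3CR1, where the bases between include a G. SMAD letters stood in 12.7% of all windows and in 3 of the 9, SELPLG and CSF1R among them. Neither the composite nor AACCACA was found in any of the 9, against 2.11% and 3% of all windows. A match is a description, not a site. The windows of P2RY13 and CX3CR1, for these matches, and of SALL1, for its base composition, are printed 5′ to 3′ on the gene's strand from the RefSeq Mmul_10 genome, with GAGGAA and MEF2 matches in capitals. SALL1 stands out in base composition with 76.4% G and C, against 31.6% for P2RY13.
P2RY13, chr2:53490199-53490448, minus strand: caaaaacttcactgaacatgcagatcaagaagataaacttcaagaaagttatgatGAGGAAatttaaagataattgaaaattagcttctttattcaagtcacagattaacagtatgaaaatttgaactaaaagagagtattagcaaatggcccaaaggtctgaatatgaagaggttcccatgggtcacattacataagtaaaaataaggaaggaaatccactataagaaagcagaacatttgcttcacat
CX3CR1, chr2:94741489-94741738, minus strand: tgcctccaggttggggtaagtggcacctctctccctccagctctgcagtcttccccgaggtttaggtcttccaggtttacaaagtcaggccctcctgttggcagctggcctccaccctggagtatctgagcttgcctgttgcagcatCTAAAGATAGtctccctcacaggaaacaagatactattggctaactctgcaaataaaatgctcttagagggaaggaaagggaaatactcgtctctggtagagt
SALL1, chr20:38250962-38251211, minus strand: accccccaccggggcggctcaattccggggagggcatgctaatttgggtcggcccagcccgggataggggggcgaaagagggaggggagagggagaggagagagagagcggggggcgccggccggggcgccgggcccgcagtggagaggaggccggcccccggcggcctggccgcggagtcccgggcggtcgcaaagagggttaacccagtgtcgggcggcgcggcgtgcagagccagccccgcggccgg

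Nuclei were assigned to classes by clusters and marker genes, with the 9 genes left out of both, and class names below mean microglia-like, oligodendrocyte-like and so on. The microglia class, which can also hold macrophages, had 1651, 2523 and 2084 nuclei in intact cervical, thoracic and lumbar cord and 3473, 4613, 3850 and 2321 nuclei at 7, 14 and 30 dpi and 6 mpi, with median UMI counts of 2395 to 5811 per nucleus. All 12 markers of the class were detected in every library. Their summed level was 9397 to 9529 CPM in the intact segments, then 11547, 10242 and 8347 CPM at 7, 14 and 30 dpi, and 5941 CPM at 6 mpi, so the sum was below the intact range at 30 dpi and 6 mpi. APBB1IP, INPP5D and DOCK8 make up most of it. One by one, 3 of the 12 were below the intact range and 5 above it at 7 dpi (PTPRC, INPP5D and AIF1 below), 6 below and 5 above at 14 dpi (INPP5D, C1QB, C1QC, AIF1, TYROBP and ITGAM below), and 7 below and 3 above at 30 dpi. At 6 mpi 8 of the 12 were below it and 4, PTPRC, TYROBP, CD74 and C1QC, inside it. Markers of other myeloid cells differed among themselves. LYVE1 was at 3.23 to 15.8 CPM in intact and 0.157 to 0.476 CPM in injured libraries, and STAB1 at 60.5 to 80.9 CPM in intact cord, 99.0 CPM at 7 dpi and 21.8 to 55.8 CPM later. CCR2 stood at 0.7 to 2.9 CPM and S100A8 and S100A9 at up to 0.3 CPM. Higher after injury were F13A1, at 50.6 to 61.3 CPM in intact and 211, 200.3, 147 and 81.8 CPM in injured libraries in the order of time, and SIGLEC1, at 0.682 to 2.42 and 15.6 to 20.1 CPM. COLEC12 was at 0.561 to 6.73 CPM in intact cord and reached 101 CPM at 30 dpi and 66.7 CPM at 6 mpi, VCAN reached 81.2 CPM at 7 dpi and FN1 77.7 CPM at 30 dpi. CD163, a macrophage scavenger receptor, was at 418 to 808 CPM in the intact segments and 72.5 to 284 CPM in the injured libraries. The summed level of the 6 perivascular macrophage markers was 555 to 957 CPM in intact and 259.5 to 560.2 CPM in injured cord, a sum that CD163 dominates in intact cord, that of the 6 monocyte and neutrophil markers 29.5 to 40.1 against 16.1 to 122 CPM, and that of the 7 oligodendrocyte markers 988 to 1291 against 979 to 1381 CPM. The part of these cells in the results was not tested directly. A setting without sub-clusters that have macrophage, monocyte or division genes among their leading genes is given below. Pairs of libraries shared 12 to 36 cell barcodes of 6134 to 12015.

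Intact and injured microglia fell into different clusters. The libraries were clustered together without correction for batch, so library and injury cannot be told apart in this split. Oligodendrocytes split too. With doublets kept, 1 of their clusters held 2061, 1708 and 1883 nuclei of intact cervical, thoracic and lumbar cord. It held 17, 113, 41 and 259 nuclei at 7, 14 and 30 dpi and 6 mpi. Cluster 1 held 84.7% to 93.8% of the microglia of the intact segments and at most 1.3% of those of an injured library. Cluster 6 held 77.8% at 7 dpi, cluster 3 held 88.7% at 14 dpi, and clusters 11 and 12 held 54.1% and 35.4% at 30 dpi. At 6 mpi cluster 14, led by GPNMB and CHIT1, held 55.4% and cluster 6 held 35.3%.

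Compared with the intact segments, 5 of the 8 genes measured, P2RY12, P2RY13, CX3CR1, SELPLG and CSF1R, were lower in all 4 injured libraries, which held for 12.4% of the 10337 genes that passed the filter. P2RY12 at 30 dpi was an exception without macrophage, monocyte or dividing clusters. That setting, here and below, left out each sub-cluster of the microglia class with at least 1 marker of those lists among its 10 leading genes. It can therefore also take out microglia, and whether the nuclei left out are other cells was not tested. GPR34 was lower in 3 libraries, though at 6 mpi it was inside the intact range under 7 of 11 alternative settings. SLC2A5 was higher at 7 and 14 dpi and lower later, though inside the range at 30 dpi under 1 setting and at 6 mpi under 2, and SALL1 was higher at 6 mpi, though not with totals scaled by TMM factors (a correction for differences in RNA composition). The number of the 8 genes below all 3 intact segments was 7 at 7 dpi (37% of all genes), 6 at 14 dpi (45.8%), 7 at 30 dpi (43.1%) and 7 at 6 mpi (27.5%). A stricter rule asked for a level of at most 0.5 of intact lumbar and below all intact segments. It was met by 1 gene at 7 dpi (GPR34), 2 at 14 dpi (P2RY13 and GPR34), 3 at 30 dpi (P2RY13, CX3CR1 and CSF1R) and 4 at 6 mpi (P2RY12, CX3CR1, SELPLG and CSF1R), against 5.49%, 4.67%, 6.29% and 4.79% of all genes. GPR34 at 14 dpi no longer met it with TMM totals, nor without macrophage, monocyte or dividing clusters, where SELPLG did. CX3CR1 and CSF1R at 30 dpi no longer met it without those clusters, and CSF1R also not without nuclei with a GPNMB UMI. At 6 mpi none of the 8 met it outside the GPNMB-led cluster 14, against 3.35% of all genes there, and with TMM totals SLC2A5 met it too. None met it in all 4 libraries, against 1.14% of all genes. In the other direction, SLC2A5 at 7 dpi, SLC2A5 at 14 dpi and SALL1 at 6 mpi were above all intact segments, 1 gene in each library, against 43.7%, 30.3% and 53.9% of all genes. At 30 dpi the count was 0, against 34.4%, and none of the 8 was above in all 4 libraries, against 15.1%. A level of at least 2 times intact lumbar was reached by 0 of the 8 in every injured library, against 8.3%, 5.97%, 7.98% and 13.1% of all genes in the order of time and 2.43% in all 4 libraries. The median log2 ratio to intact lumbar over the 8 genes was -0.72, -0.59, -0.85 and -0.96 at 7, 14 and 30 dpi and 6 mpi, beside 0.05, -0.08, -0.05 and 0.18 over all genes. At a clustering resolution of 0.5 the 6 mpi median was much less negative, as given in the last section.

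**Figure D1:**
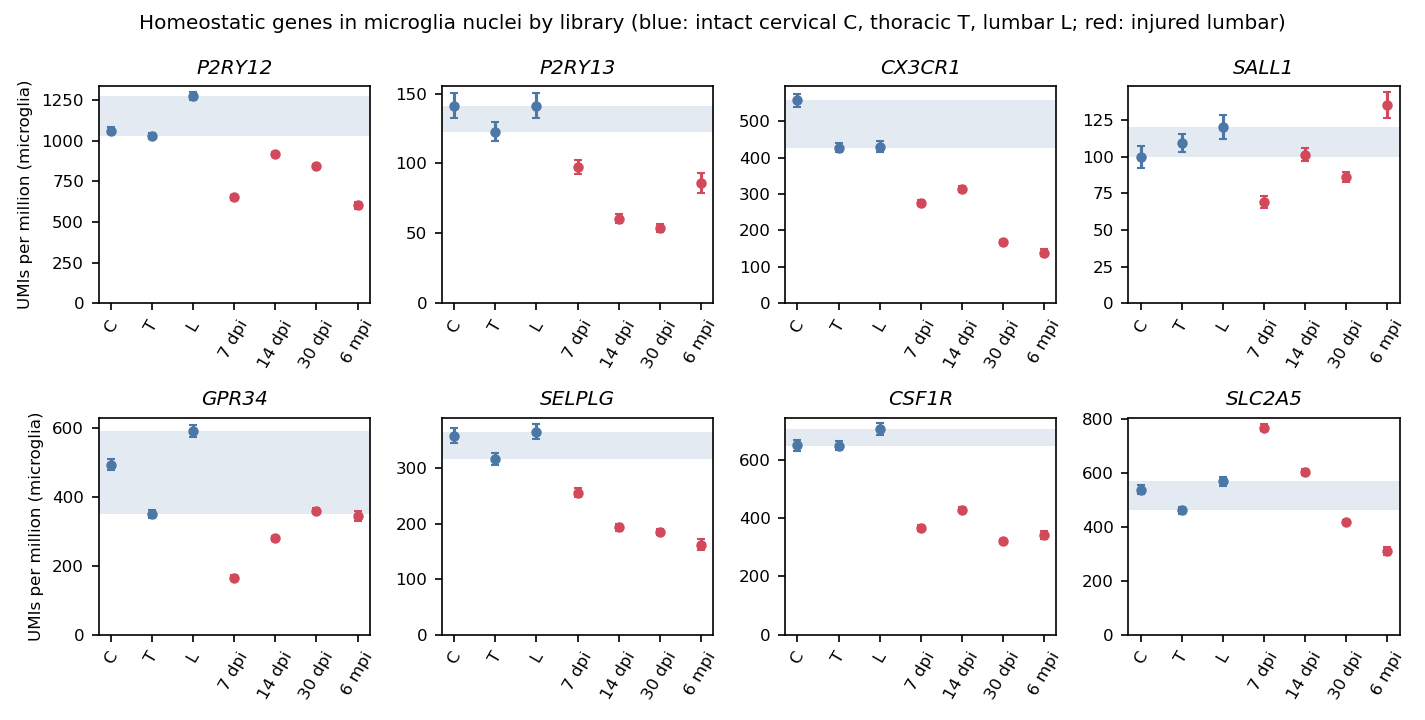
Level of 8 homeostatic genes in microglia nuclei (vertical axes, CPM from 0, on a scale of its own for each gene) in the intact cervical (C), thoracic (T) and lumbar (L) libraries in blue and the injured lumbar libraries in red. Bars are exact Poisson 95% intervals for counting error, the band is the range of the intact segments, and the red points of P2RY12, P2RY13, CX3CR1, SELPLG and CSF1R all lie below the band.

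Among the purinergic and lipid receptors, P2RY12 was measured at 1063, 1029 and 1276 CPM in intact cervical, thoracic and lumbar microglia. The injured lumbar libraries had 651, 919, 845 and 602 CPM in the order of time, which here and below is 7, 14 and 30 dpi and 6 mpi. Every injured library was below every intact segment, and the lowest levels were those of the earliest and the latest time. In the same order, the log2 ratio to intact lumbar was -0.97 (95% counting interval -1.01 to -0.93), -0.47 (-0.51 to -0.44), -0.59 (-0.63 to -0.56) and -1.08 (-1.14 to -1.03). Without macrophage, monocyte or dividing clusters the 30 dpi value was -0.22 and inside the intact range, and at 6 mpi the value was -0.41 outside cluster 14, so the place of 6 mpi among the lowest rests on that cluster. Intact lumbar was itself 1.24 times the lowest intact segment. These intervals, like all others given here, are exact and cover counting error only.

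P2RY13, next to P2RY12 on the chromosome, was at 142, 123 and 141 CPM in the intact segments, where the cervical and lumbar intervals overlap. After injury it stood at 97.2, 60.6, 53.9 and 85.8 CPM in the order of time. Unlike P2RY12, it had its lowest levels at 14 and 30 dpi, where the log2 ratios were -1.22 (-1.34 to -1.10) and -1.39 (-1.51 to -1.27). At 7 dpi the log2 ratio was -0.54 (-0.66 to -0.43) and at 6 mpi -0.72 (-0.87 to -0.57). MED12L, the gene around both, was at 69.0 to 103 CPM in intact and 46.7 to 62.7 CPM in injured microglia. In neurons, where MED12L stood at 294 to 373 CPM, P2RY12 was at 5.52 to 13.2 CPM and P2RY13 at 0.669 to 0.922 CPM. Whether the counting used strand is not given in the sources used here.

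GPR34 varied most among the intact segments, with 493, 349.5 and 589 CPM in cervical, thoracic and lumbar microglia, a spread of 1.69 times. The injured libraries had 165, 279, 359 and 343 CPM. The 7 dpi level was the lowest, and the 30 dpi level lay inside the intact range. The 30 dpi and 6 mpi intervals (352 to 367 and 328 to 357 CPM) overlap each other and that of intact thoracic cord. Against intact lumbar the log2 ratio was -1.83 (-1.90 to -1.76), -1.08 (-1.14 to -1.02), -0.71 (-0.77 to -0.66) and -0.78 (-0.86 to -0.71) in the order of time. The 6 mpi level entered the intact range under 7 of 11 alternative settings. The 11 include the ratio to the mean of the intact segments, which could not change this position. CASK, the gene around GPR34, was at 241 to 308 CPM in intact and 216 to 248 CPM in injured microglia. Neurons had CASK at 323 to 391 CPM and GPR34 at 1.71 to 5.41 CPM.

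CX3CR1, the fractalkine receptor, was at 558 CPM in cervical, 428 in thoracic and 431 in lumbar microglia of intact cord, where the last pair of intervals overlap. In injured lumbar cord it was at 275, 315, 168 and 139 CPM. The log2 ratio was -0.65 (-0.71 to -0.58), -0.45 (-0.51 to -0.39), -1.36 (-1.43 to -1.29) and -1.64 (-1.75 to -1.53) in the order of time. The 30 dpi and 6 mpi libraries were the lowest, at 38.9% and 32.2% of intact lumbar. Outside cluster 14 the 6 mpi ratio was -0.63, close to that of 7 dpi, and without macrophage, monocyte or dividing clusters the 30 dpi ratio was -0.91. Its ligand CX3CL1 was at 0.714 to 2.04 CPM in microglia, under the filter, and at 26.8 to 34.1 CPM in neurons.

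CSF1R was the most even of the genes over the intact segments, with 649, 648 and 705 CPM. After injury its levels were 366, 429, 320.2 and 340.5 CPM, with overlapping intervals for 30 dpi (313 to 327) and 6 mpi (326 to 355). All injured libraries lay between 45.4% and 60.9% of intact lumbar, and the log2 ratios were -0.94 (-1.0 to -0.89), -0.72 (-0.77 to -0.67), -1.14 (-1.19 to -1.09) and -1.05 (-1.12 to -0.98) in the order of time. Outside cluster 14 the 6 mpi ratio was -0.29, and without macrophage, monocyte or dividing clusters the 30 dpi ratio was -0.86. The ligand CSF1 in the same nuclei was at 1.40 to 2.46 CPM in intact cord and 3.58, 14.4, 24.7 and 18.3 CPM at 7, 14 and 30 dpi and 6 mpi. The other ligand, IL34, was at 0.357 to 1.12 CPM in microglia and at 11.7 to 17.4 CPM in neurons.

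SELPLG, the P-selectin ligand, was at 359, 316 and 366 CPM in the intact segments and at 255, 193, 184 and 162 CPM at 7, 14 and 30 dpi and 6 mpi. Each later library was lower than the one before, although the 14 and 30 dpi intervals overlap and the 6 mpi level was 206 CPM outside cluster 14. Its log2 ratio was -0.52 (-0.59 to -0.45), -0.92 (-0.99 to -0.85), -0.99 (-1.06 to -0.92) and -1.17 (-1.28 to -1.07). SELP, the selectin itself, was at up to 0.1 CPM in microglia.

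SLC2A5, the fructose transporter, went both ways. It was at 537, 461 and 568 CPM in intact cervical, thoracic and lumbar microglia and at 767, 604, 418 and 309 CPM after injury. The 7 and 14 dpi libraries were above all intact segments and the 30 dpi and 6 mpi libraries below them. The log2 ratio was 0.43 (0.38 to 0.49), 0.09 (0.04 to 0.14), -0.44 (-0.49 to -0.39) and -0.88 (-0.95 to -0.80) in the order of time. Both later values depend on the nuclei included: at 6 mpi the ratio was -0.07 outside cluster 14 and -0.21 without nuclei with a GPNMB UMI, and at 30 dpi it was -0.23 without macrophage, monocyte or dividing clusters, each inside the intact range.

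SALL1, the transcription factor, was at 99.6, 109 and 120.1 CPM in the intact segments. The injured libraries had 69.3, 101, 86.2 and 135 CPM. At 14 dpi it was inside the intact range, at 7 and 30 dpi below it and at 6 mpi above it. With nuclei thinned before summing, the 14 dpi level was below the range too. The log2 ratio was -0.79 (-0.92 to -0.66), -0.24 (-0.36 to -0.13), -0.48 (-0.59 to -0.36) and 0.17 (0.03 to 0.31). Without macrophage, monocyte or dividing clusters the 30 dpi value was -0.18 and inside the range. With totals scaled by TMM factors, the 6 mpi value was -0.021 and inside the intact range.

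TMEM119 was not detected in microglia: 0 UMIs in each of the 7 libraries, over 20515 nuclei. A count of 0 allows a level of up to 0.119 CPM (30 dpi) to 0.470 CPM (6 mpi), taking 3 counts as the floor. This bounds the counted UMIs only: the annotation release and intron setting are not given in the sources used here, and whether the gene model misses reads of TMEM119 was not tested. Over all 63733 nuclei kept, the gene had 2 UMIs, both in neurons. Its neighbour SELPLG was counted at the levels given above in the same nuclei. TMEM119 therefore gave no comparison.

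**Figure D2:**
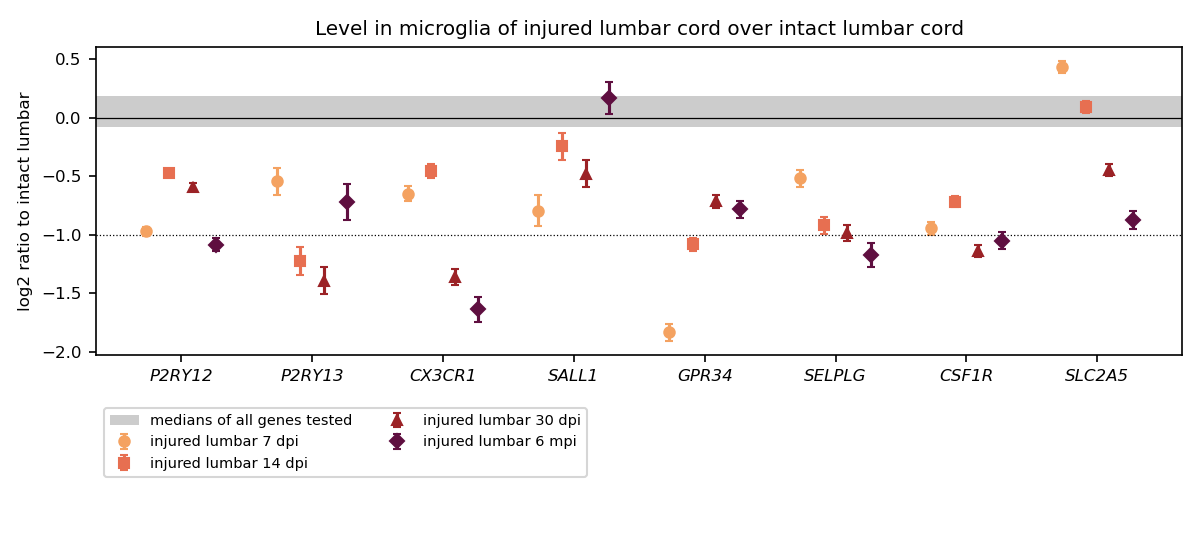
The log2 ratio of the level in microglia of each injured lumbar library to intact lumbar (vertical axis) for 8 genes, with exact 95% counting intervals as bars, the dotted line at -1 and a grey band for the medians of all genes tested. Only SLC2A5 at 7 and 14 dpi and SALL1 at 6 mpi, the last not with TMM totals, lie above 0.

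Free RNA gives UMIs in nuclei that do not express a gene, so shares in microglia are set beside those in oligodendrocytes and neurons. To compare shares of nuclei, each nucleus was thinned to 1000 UMIs. P2RY12 was then found in 59.2%, 57.4% and 64.6% of microglia nuclei of intact cervical, thoracic and lumbar cord and in 44.8%, 53.6%, 51.5% and 37.8% at 7, 14 and 30 dpi and 6 mpi. It was found in 0.258% to 1.58% of oligodendrocytes and 0.382% to 1.31% of neurons, whose median depth before thinning was 3594 to 8629 and 21272 to 39118 UMIs. Without thinning, the share of microglia was 82.7% to 89.7% in 6 libraries and 57.2% at 6 mpi. For CX3CR1 the thinned share was 38.6%, 30.4% and 28.6% in intact and 22.2%, 21.8%, 13.5% and 10.9% in injured libraries, and for CSF1R it was 47.3%, 47.3% and 50.9% against 30.1%, 34.0%, 28.7% and 26.3%. SLC2A5 was found in 37.4% to 39.8% of intact microglia and in 50.4%, 40.1%, 32.8% and 24.2% in the order of time. The thinned shares of GPR34 were 27.7% to 40.8% in intact and 15.2% to 29.6% in injured libraries, those of SELPLG 26.4% to 31.0% and 14.2% to 21.4%, those of P2RY13 10.2% to 13.7% and 5.58% to 8.98%, and those of SALL1 9.39% to 10.3% and 6.19% to 12.2%. For CX3CR1, CSF1R, SLC2A5, GPR34, SELPLG and P2RY13 the thinned share was 0% to 1.09% of oligodendrocytes and 0% to 0.953% of neurons in every library, below the microglial share of the same gene.

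Counted together in thinned nuclei, none of the 9 genes was seen in 3.15%, 5.27% and 2.74% of intact microglia. The share without any of them was 8.98%, 9.89%, 14.0% and 23.5% at 7, 14 and 30 dpi and 6 mpi. At least 3 of the genes were seen in 55.2%, 46.7% and 57.5% of intact and in 31.5%, 34.4%, 29.9% and 23.0% of injured microglia. In oligodendrocytes 89.0% to 92.5% of nuclei, and in neurons 96.6% to 98.2%, had none.

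In oligodendrocytes and neurons 7 of the 8 genes were low. P2RY12, P2RY13, CX3CR1, GPR34, SELPLG, CSF1R and SLC2A5 stood at 0.145% to 5.00% of the microglial level of the same library in oligodendrocytes and at 0.186% to 2.27% in neurons. The 12 marker genes of the microglia class, read in the same way, had medians of 0.512% to 4.87% in oligodendrocytes and 0.739% to 2.27% in neurons. In oligodendrocytes each of the 7 genes, and the median of the markers, was highest in the 6 mpi library. SELPLG, which lymphocytes also carry, was at 51.6 to 101 CPM in T cells, 25.8% to 39.6% of microglia, in the 4 libraries with enough such nuclei (54 to 124). CX3CR1 in T cells was at 124 CPM at 7 dpi, 45.2% of microglia, from 16 UMIs, and GPR34 there was at 23.5% from 5 UMIs. The median over the 8 genes in T cells was 3.85% in intact thoracic cord and 18.1%, 11.98% and 8.20% at 7, 14 and 30 dpi, beside 16.4%, 45.2%, 31.5% and 35.2% for the 12 markers. The highest of the 12 markers stood at 267% to 411% of microglia there. They include the pan-leukocyte gene PTPRC, so in T cells they give no measure of free RNA. In ependymal cells the median over the 8 genes was 0.537% to 1.41% in the intact segments, and 15.1% at 14 dpi and 8.44% at 30 dpi, where the class had 47 and 46 nuclei.

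SALL1 was the exception. It was at 65.7 to 82.6 CPM in oligodendrocytes, which is 60.2% to 108% of the microglial level, and at 7 dpi the oligodendrocyte level of 75.0 CPM was above the microglial 69.3 CPM, with overlapping intervals. After thinning, 4.92% to 6.86% of oligodendrocytes held a SALL1 UMI, beside 0% to 0.509% of neurons. Astrocytes were at 29.6 to 48.8 CPM and ependymal cells, in the 5 libraries with enough of them, at 36.9 to 75.2 CPM, while neurons were at 1.65 to 3.42 CPM. Whether the uncharacterised gene on the other strand adds reads was not tested.

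**Figure D3:**
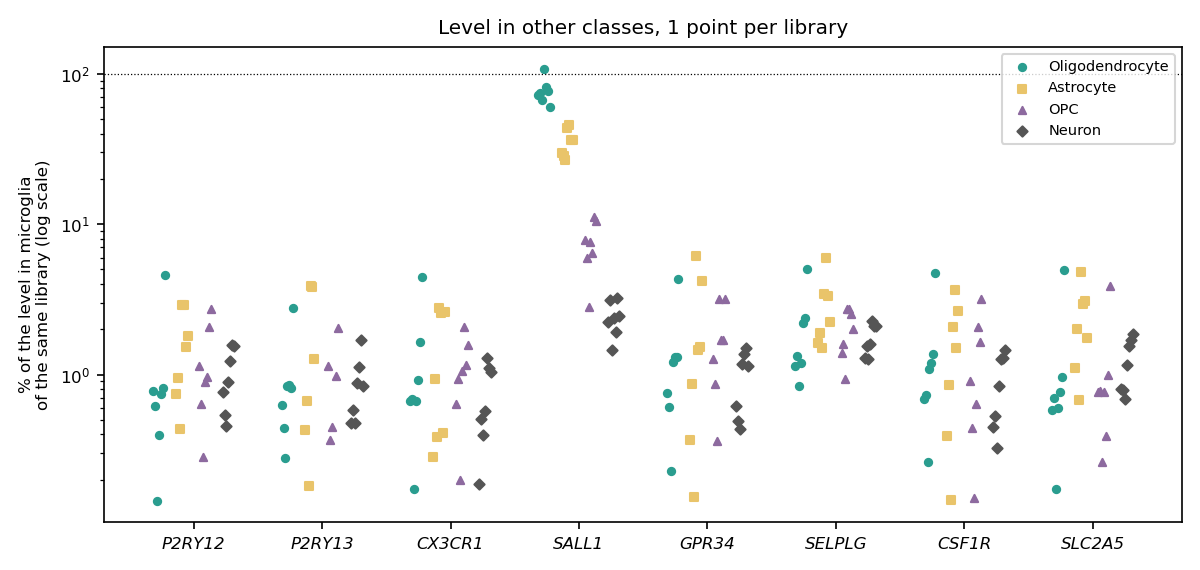
Level of each gene in oligodendrocytes, astrocytes, oligodendrocyte progenitors (OPC) and neurons as a percentage of the level in microglia of the same library (vertical axis, log scale), with 1 point per library and values of 0 left out. SALL1 stands apart, with 60.2% to 108% in oligodendrocytes, while the other genes lie near or below 6.11%.

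GPNMB, a glycoprotein of lysosomes and a gene of lipid-laden and disease-associated microglia, was at 1.54 to 19.7 CPM in intact and 66.7, 152, 493 and 1473 CPM in injured microglia in the order of time. After thinning, 3.69%, 6.96%, 19.9% and 47.8% of the injured microglia held a GPNMB UMI, in 128, 321, 768 and 1109 nuclei. Within each library the nuclei with GPNMB were set against those without, so both sets share the animal and the library. The study also lists GPNMB for a type of macrophage, and whether macrophages make up part of either set was not tested. CX3CR1 had the lowest ratio of the 8 genes at 14 and 30 dpi and 6 mpi, and at 7 dpi it was close to P2RY12. In the order of time it was at 125 against 300.1, 21.8 against 348, 28.6 against 232 and 25.2 against 258 CPM. The log2 ratio was -1.26 (-2.08 to -0.56), -3.99 (-5.31 to -2.95), -3.02 (-3.70 to -2.41) and -3.35 (-3.97 to -2.79).

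P2RY12 was lower in nuclei with GPNMB in every injured library, with log2 ratios of -1.32, -0.89, -1.21 and -1.68 and no interval reaching 0. CSF1R was at -0.28 (-0.78 to 0.18) at 7 dpi and then at -1.46, -1.29 and -1.84. SLC2A5 was at -0.40, -0.51 and -0.65 at 7, 14 and 30 dpi and at -2.03 (-2.30 to -1.76) at 6 mpi, where its level was 124 against 503 CPM. P2RY13 was at -0.51 (-1.66 to 0.43), -2.83 (-5.12 to -1.27), -0.84 and -0.70. Among the rest, GPR34 was at -0.13 (-0.85 to 0.51), -0.48, -0.90 and -0.38, SALL1 at -1.15 (-3.04 to 0.23), -0.20 (-0.82 to 0.36), -0.67 and -0.63, and SELPLG at -0.90, -0.79, 0.00 (-0.26 to 0.25) and -0.45. At a clustering resolution of 0.5 the 6 mpi values of GPR34 and SELPLG turned to 0.036 and 0.27.

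**Figure D4:**
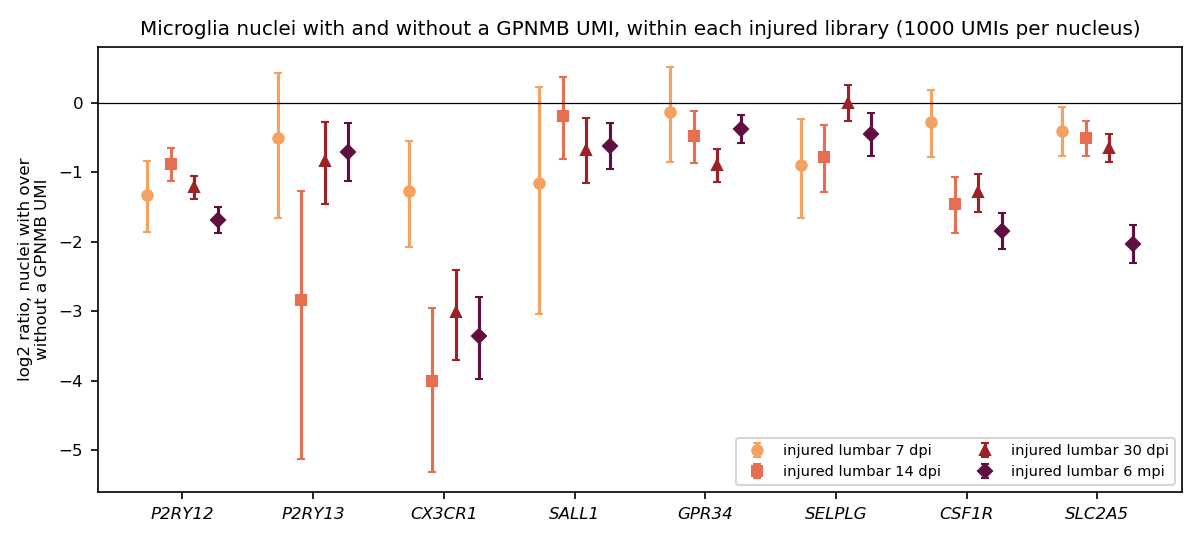
The log2 ratio of the level in microglia nuclei with a GPNMB UMI to that in nuclei without one (vertical axis), for 8 genes within each of the 4 injured libraries, on nuclei thinned to 1000 UMIs with exact 95% counting intervals as bars. CX3CR1 has the lowest points from 14 dpi on, down to -3.99, and SELPLG at 30 dpi lies at 0.00.

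Nuclei without a GPNMB UMI were compared with intact microglia as well, both thinned. P2RY12, CX3CR1, SELPLG and CSF1R remained below all intact segments in all 4 libraries. P2RY12 at 30 dpi was only just below, at 1007 CPM (972 to 1043) against 1034 CPM in the lowest intact segment. The share of all genes below in all 4 libraries was not counted for this comparison. At 6 mpi the log2 ratio of these nuclei to intact lumbar was -0.47 (-0.57 to -0.37) for P2RY12, -0.64 (-0.83 to -0.45) for CX3CR1, -1.04 (-1.26 to -0.82) for SELPLG and -0.46 (-0.60 to -0.33) for CSF1R. P2RY13, GPR34 and SLC2A5 were then inside the intact range, and SALL1 was higher at 172 CPM, with a log2 ratio of 0.71 (0.43 to 0.99). At 7 dpi 7 of the 8 genes were below the intact range in this comparison, at 14 dpi 7, at 30 dpi 7 and at 6 mpi 4, against 35.3%, 42.4%, 41% and 28.2% of all genes. The counts at 14 and 30 dpi include SALL1, at 96.5 and 97.7 CPM against 102 CPM in the lowest intact segment. Its log2 ratio intervals to intact lumbar, -0.36 to 0.12 and -0.36 to 0.15, hold both signs. A nucleus without a GPNMB UMI at this depth may still express the gene.

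At 6 mpi the levels of P2RY12, P2RY13, CX3CR1, CSF1R and SLC2A5 rest in large part on cluster 14, those of GPR34 and SELPLG less so. The 1285 nuclei of this cluster in that library had P2RY12 at 349.8 CPM, CX3CR1 at 40.7, CSF1R at 176, SLC2A5 at 147, SELPLG at 132 and SALL1 at 117 CPM. They had GPR34 at 315 and P2RY13 at 65.1 CPM. The other 1036 microglia nuclei of the library had P2RY12 at 963 CPM, CX3CR1 at 279, CSF1R at 577, SLC2A5 at 543, SELPLG at 206 and SALL1 at 162 CPM. GPR34 was at 382 and P2RY13 at 116 CPM in them. In those nuclei 5 of the 8 genes were still below all intact segments, against 29.8% of all genes, GPR34 and SLC2A5 were inside the range, and SALL1 was above it. The cluster had PTPRC, the pan-leukocyte gene CD45, at 803 CPM beside 886 CPM over all microglia. Its summed microglia markers were at 3908 CPM and its oligodendrocyte markers at 1572 CPM, beside 9444 and 1085 CPM over all microglia and 66.5 and 13061 CPM in oligodendrocytes. Clustering at a coarser resolution of 0.5 left this cluster unnamed, and none of the 8 genes then reached 0.5 of intact lumbar at 6 mpi. At 30 dpi no such split was made within the library. Over all libraries, cluster 11 held 2199 nuclei, 2084 of them from 30 dpi. It had P2RY12 at 1183, GPR34 at 470, SALL1 at 113 and SLC2A5 at 486 CPM, inside the intact range. It had P2RY13 at 77.8, CX3CR1 at 268, SELPLG at 220 and CSF1R at 429 CPM, below that range. The GPNMB-led cluster 12 (1363 of 2122 nuclei from 30 dpi) had all 8 genes below it, with P2RY12 at 411 and GPR34 at 224 CPM.

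**Figure D5:**
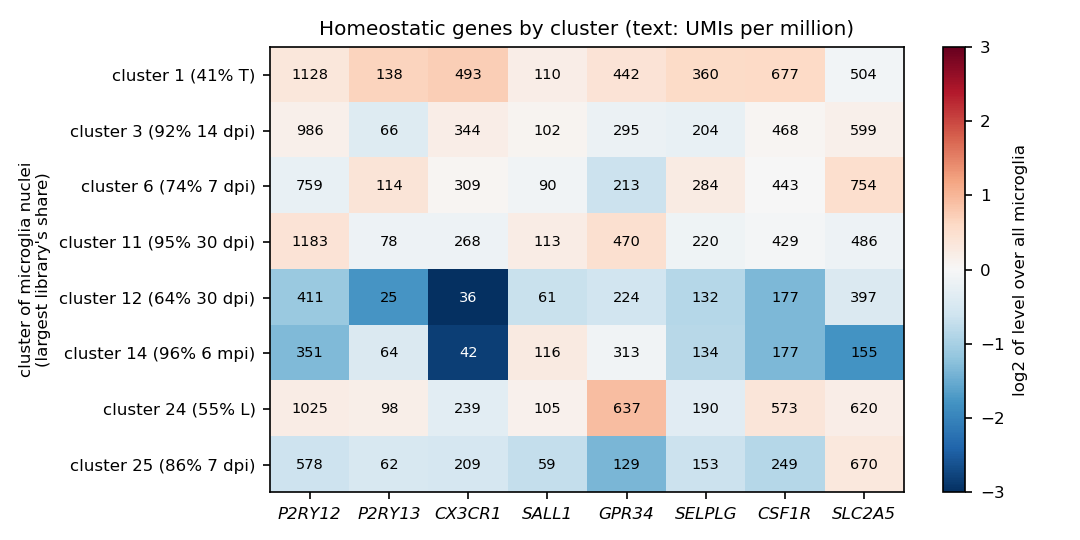
Level of 8 genes (columns) in the 8 clusters of microglia nuclei (rows, each with the share of its nuclei that the largest library holds), written as CPM and coloured by the log2 ratio to all microglia. Clusters 12 and 14, led by GPNMB, have CX3CR1 at 35.9 and 42 CPM beside 493 CPM in cluster 1, the cluster of the intact segments.

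When the microglia class was clustered again on its own, without the 9 genes, it gave 20 sub-clusters, 19 with at least 50 nuclei. Over these 19 the level of CX3CR1 ran from 7.18 CPM in sub-cluster 6, with 1124 nuclei nearly all from 6 mpi, to 503 CPM in sub-cluster 1, from intact cord. P2RY12 ran from 209 to 1169 CPM, GPR34 from 102 to 621, CSF1R from 131 to 756, SLC2A5 from 106 to 1015 and SELPLG from 89.4 to 398 CPM. P2RY13 was highest in sub-cluster 17, at 306 CPM in 63 nuclei led by genes of cell division. SALL1 was at 4.45 CPM in sub-cluster 16, 84 nuclei from injured cord with GPNMB at 1835 CPM, and at 57.9 to 178 CPM in the other 18. The smallest sub-cluster, 14 nuclei with the perivascular macrophage genes F13A1 at 3171 CPM and LYVE1 at 367 CPM, had no SALL1 UMI, CX3CR1 at 21.6 CPM and CSF1R at 690.3 CPM. In such small sub-clusters low values rest on few UMIs, and a lack of UMIs sets no close bound on the level.

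A list of 18 other homeostatic genes, of which 15 have an identifier and 13 passed the filter, had a median log2 ratio of 0.31, 0.35, 0.20 and 0.23 in the order of time. The number of them at 0.5 of intact lumbar or less was 0, 0, 0 and 2, against 5.49%, 4.67%, 6.29% and 4.79% of all genes. The number at 2 times or more was 2, 1, 1 and 2, against 8.3%, 5.97%, 7.98% and 13.1% of all genes. Both counts also asked for a level outside the range of the intact segments. At 6 mpi the lower pair was LPCAT2 and SALL3, and SLCO2B1 was among the higher. SALL3, a relative of SALL1, was at 8.28, 8.88 and 9.01 CPM in the intact segments and at 28.4, 8.90, 4.64 and 0.157 CPM after injury, the last from 1 UMI. LPCAT2 was at 390.1 to 432 CPM in intact cord and 167 CPM at 6 mpi. SLCO2B1, an organic anion transporter, was at 569 to 684 CPM in intact cord and 2255 CPM at 6 mpi.

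Of 10 regulators of myeloid cells 9 passed the filter, with a median log2 ratio of 0.36, 0.63, 0.57 and 0.00 in the order of time. SMAD3, a mediator of TGF-beta signalling, was at 118 to 157 CPM in intact cord and at 301, 264, 265 and 179.6 CPM in injured cord. RUNX1 was at 361 to 417 CPM and then at 784, 787, 542 and 361 CPM. MEF2A was lower in every injured library, with 4430.3 to 5226 CPM in intact and 4072, 3423, 3024 and 2724 CPM in injured microglia. SPI1, which encodes PU.1, was at 56.0 to 59.8 CPM in intact and 61.2 to 87.0 CPM in injured microglia. IRF8 was at 82.7 to 94.0 CPM in intact and 154, 221, 159.7 and 126 CPM in injured microglia. Among 6 genes that neighbour or overlap the members, 3 passed the filter, and CORO1C, near SELPLG, was at 84.6 to 101 CPM in intact cord and 209 and 210 CPM at 30 dpi and 6 mpi.

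The genes whose pattern over the 7 libraries was most like that of each member, by Pearson's r of log2(CPM + 1) among 6332 genes with a mean of at least 20 CPM, had r of 0.947 to 0.996, which describes 7 points that share depth and library. They were ATF6, CLCN5 and CD163 for P2RY12, C6H5orf22, SIGLEC5 and PRKD3 for P2RY13, and SNRK, UBE2V2 and RPAP2 for GPR34. For CX3CR1 they were DIP2B, SLC35F2 and KREMEN1, for SELPLG CDK6, IL13RA1 and RBM34, and for CSF1R MSMO1, EXT1 and PHC2. SALL1 had IVNS1ABP, SEMA4A and ACVR2A, and SLC2A5 had PSME3IP1, TGIF2 and DNAJC17. Among the members themselves r was highest for CX3CR1 and SELPLG (0.91) and lowest for SALL1 and SLC2A5 (-0.67).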

How the data were processed

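Per the labels and the study's methods, nuclei were isolated from spinal cord and processed with 10x Chromium v3 chemistry, and the authors aligned reads to Mmul_10 with Cell Ranger 6.0.0. Annotation release, intron and strand settings are not given in the sources used here. The deposited matrices hold UMI counts, 45079131 to 150987900 per library. The authors' own clustering was not used here. Genes with 1 symbol were summed.

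After the study's methods, a barcode needed more than 500 genes and 1000 UMIs, with less than 10% of UMIs mitochondrial and less than 5% from hemoglobin genes. The highest 5% of Scrublet scores of each library were removed (scanpy 1.11.5), which left 5638 to 11002 nuclei. From 2000 variable genes without the 9 members, 30 principal components and 20 neighbours gave Leiden clusters (resolution 1, leidenalg 0.10.2), named by marker scores. No correction for batch was made, whereas the study integrated its samples for that purpose. Clusters under 0.2% of nuclei were left unnamed, a limit set after seeing the clusters. CPM are the summed UMIs of a gene over those of all genes in the class and library. Intervals are exact at 95% (Poisson for CPM, conditional binomial for ratios). The fold rule was tested on simulated data. TMM factors are from edgeR 4.0.16. Free RNA was not subtracted. A few items are not reported here. Named genes are all members, the largest and smallest log2 ratios of each list and the 3 genes most alike each member. LPCAT2, RUNX1, SMAD3, SPI1 and CASK and the ligands other than CSF1 were named after their values were seen. The members and lists were chosen with earlier results of these data known.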

Additional observations from a re-analysis of the deposited data

How the results depend on the processing

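No paired analysis was possible because each group has 1 library. Over 11 alternatives for each of 32 log2 ratios to intact lumbar, 14 of 352 values changed their position against the intact range. For 1 alternative, the ratio to the mean of the intact segments, the 32 positions are those of the main setting and could not change. Of the 352 values 1 changed sign: SALL1 at 6 mpi was -0.021 with TMM totals, which left no gene above the range there (0 instead of 1). TMM totals also left 1 of the members past the fold and lower at 14 dpi (3.47% of all genes). Without macrophage, monocyte or dividing clusters, 1 member was past the fold and 4 were below all intact segments at 30 dpi, against 5.58% and 46% of all genes, and P2RY12, SALL1 and SLC2A5 were then inside the range. That setting left 2482 of 3850 nuclei at 30 dpi and 4523 of 4613 at 14 dpi. At 6 mpi the count of members past the fold and lower was 0 at Leiden resolution 0.5, 2 with nuclei named one by one and 0 without nuclei with a GPNMB UMI (3.33%, 4.3% and 3.29% of all genes), an alternative chosen after seeing the data, and 5 with TMM totals (6.62%), where SLC2A5 was at -1.07. The 6 mpi class had 1145 nuclei at resolution 0.5 instead of 2321. The median log2 ratio over the 8 genes at 6 mpi was then -0.37. With a fold of 1.5, members past the fold and lower were 5, 4, 5 and 7 in the order of time. All genes past that fold were 1335, 1342, 1468 and 1017 lower and 1822, 1196, 1431 and 2675 higher. With no filter on low values, 23065 genes gave 2301, 1823, 2362 and 1647 lower and 2906, 2958, 3136 and 4405 higher at the fold of 2. In the comparison by GPNMB, the 6 mpi ratio was 0.036 for GPR34 and 0.27 for SELPLG at resolution 0.5. Not removing doublets, naming small clusters and leaving out sub-cluster 9, which is led by genes of other classes, moved none of the 32 ratios beyond its interval, though GPR34 at 6 mpi entered the intact range without sub-cluster 9. The last pair was added after seeing the data. Depth limits the comparison by GPNMB at 7 dpi, with 128 nuclei.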
